A study of Mus musculus with 4 samples.

Results

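The Myc and Pvt1 locus of mouse chromosome 15 carried 66 macroH2A islands in C2C12 myoblasts and 48 in C2C12 myotubes, 114 of the 59489 islands that the 2 lists hold in all. An island is a stretch of enriched windows that SICER joined across short gaps, listed with its number of ChIP reads. The locus was taken as chromosome 15 from 61300000 to 64000000 (mm9), 2.7 Mb that hold Myc, given as 61816500 to 61822000, and Pvt1 downstream of it. It was selected on earlier results from these same lists, namely an island at Myc seen at day 0 alone and higher read density at day 5 between 62 and 64 Mb. Those values, and every other measure of the locus here, are therefore descriptions without a test.

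C2C12 is an established mouse line of skeletal muscle precursors that fuse into multinucleated myotubes when serum is withdrawn. The day 0 library came from myoblasts, and the day 5 library from myotubes after 5 days in a differentiation medium with horse serum; both were immunoprecipitated with the same macroH2A antibody. Each day has 1 library, so no spread between cultures was measured, and all differences are between these 2 libraries. The 2 input samples were not analysed here, so the amount of macroH2A and the amount of DNA at a place cannot be told apart. The lists hold no expression values, so the labelled cell types were not checked against marker genes.

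MacroH2A is a histone H2A variant with a large globular domain at its C-terminal end, and it replaces ordinary H2A in broad, mostly repressed stretches of chromatin. Myc encodes a basic helix-loop-helix leucine zipper transcription factor that drives growth and cell cycle entry, and myoblasts lower it as they differentiate. Pvt1 is a long noncoding RNA gene next to Myc. The 2 genes lie in a gene-poor neighbourhood known for distant Myc enhancers, for retroviral insertion sites and for joint amplification in tumours.

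Both genes were found in RefSeq's gene table, whose assembly (GRCm38) is not that of the lists, so it was used for names and order only. Pvt1 follows Myc with no gene between them. The nearest protein-coding gene before Myc is A1bg, with 7 other genes between. The nearest after Pvt1 is Gsdmc, with 15 genes between, of which 8 are long noncoding RNAs and 5 are pseudogenes, among them Macroh2a3. The extent of Pvt1 in mm9 was not at hand, so no island is assigned to its exons or introns.

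The Myc gene itself was almost free of islands at both days. At day 0 the window of 5.5 kb was covered over its last 1000 bp, or 18.2%, and at day 5 over 0 bp. The bases covered at day 0 belong to a 48.6 kb island from 61821001 to 61869600, which begins inside the window near its downstream end. It held 5169 reads, or 106 reads per kb (103 to 109, exact Poisson interval at 95%, which covers counting error only). The median island of the rest of chromosome 15 had 80.6 reads per kb at day 0, so this island was 1.32 times as dense. The day 0 islands that follow downstream began with 107, 104, 106 and 112 reads per kb. The density of the island at Myc was therefore not particular to it. No day 5 island overlapped it. By reads it ranked 2 among the chromosome 15 islands seen at day 0 alone.

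On the upstream side of Myc, islands came close to the gene at both days. The day 5 border was nearer by 1.2 kb, no more than the 1200 bp gap across which windows were joined. The last island before the window at day 0 ran from 61805401 to 61815000 and ended 1.5 kb short of it, with 875 reads at 91.1 reads per kb (85.2 to 97.4). At day 5 it ran from 61788601 to 61816200 and ended 0.299 kb short, with 4506 reads at 163 reads per kb (158.5 to 168.1). The myotube island was wider by 16.8 kb on its left and 1.2 kb on its right. In the myoblast map Myc thus had an island on each side, and in the myotube map on its upstream side alone.

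Downstream of Myc a long stretch had no island in either list. At day 0 it ran from 61869601 to 62111400 (241.8 kb), starting where the island at Myc ended. At day 5 it ran from 61816201 to 62060400 (244.2 kb) and so took in Myc itself. The part without an island at both days, from 61869601 to 62060400, was 190.8 kb long. Pvt1 is the gene that follows Myc on this side. Stretches of at least 190 kb without an island at either day numbered 69 on chromosome 15, so one of this length is common there. It was nevertheless the longest between the first and the last island of the locus, where the next was 18 kb. A lack of a row shows only that no island was listed, and not that macroH2A was absent.

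**Figure D1:**
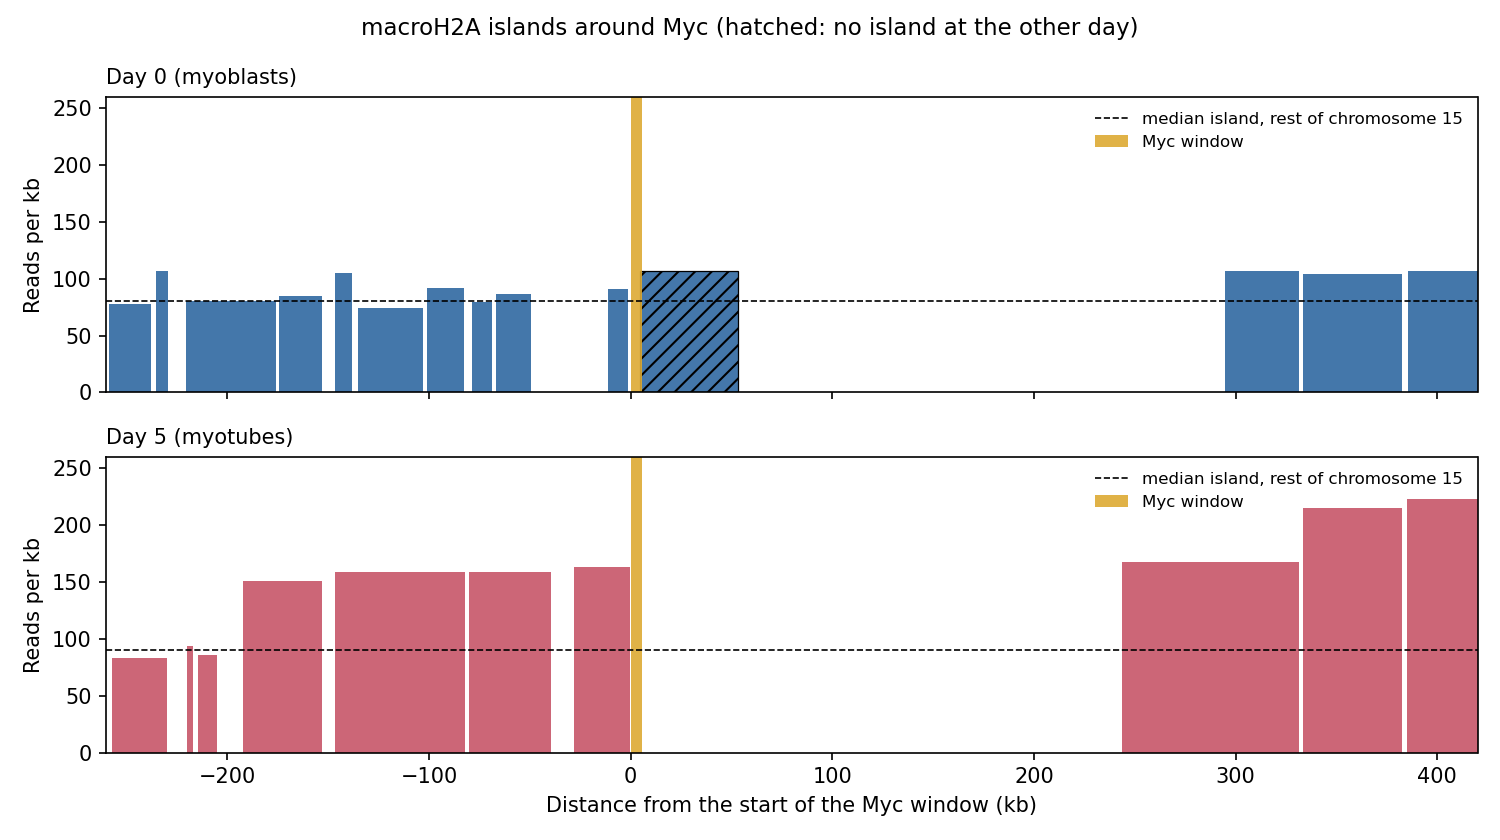
Islands around Myc at day 0 (top) and day 5 (bottom), with distance from the start of the Myc window in kb on the x axis and reads per kb of each island as bar height. The yellow band is the Myc window, the dashed line is the median island of the rest of chromosome 15 on that day, and hatching marks an island with no counterpart; the hatched day 0 bar of 48.6 kb at 106 reads per kb has nothing beneath it at day 5.

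Where islands resumed downstream, myotubes had them 51 kb nearer to Myc. The first downstream island at day 5 ran from 62060401 to 62148000 with 14705 reads at 168 reads per kb (165.2 to 170.6). At day 0 it ran from 62111401 to 62148000 with 3916 reads at 107 reads per kb (103.7 to 110.4). Their right borders were identical, and the left shift of 51 kb was the largest outer border shift in the locus where islands of both days overlapped. The distance from the end of the Myc window to the first island beyond this gap was 289 kb at day 0 and 238 kb at day 5.

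Across its whole length the locus was 2.08 times as covered as the rest of the chromosome in myoblasts and 2.02 times in myotubes. Islands covered 1709 kb, or 63.3%, at day 0 and 1792 kb, or 66.4%, at day 5, against 30.4% and 32.9% over the rest of chromosome 15. Myotube islands covered 1.05 times the length of myoblast islands in the locus and 1.08 times elsewhere on the chromosome. Of the covered length, 1584 kb were shared, 125 kb were covered at day 0 alone and 208 kb at day 5 alone. The Jaccard index, shared over joint length, was 0.826 in the locus and 0.643 in the rest of the chromosome; it rises with how much is covered. Median island width was 18 kb in myoblasts and 27.3 kb in myotubes, whereas elsewhere on chromosome 15 it was 12.6 kb at both days.

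Read density, unlike coverage, differed widely between the days. In the locus the median island had 89.7 reads per kb at day 0, with a lowest of 70.7 and a highest of 118. At day 5 the median was 148, the lowest 81.1 and the highest 233. The medians of the rest of chromosome 15 were 80.6 and 90, so the locus stood at 1.11 times the rest in myoblasts and 1.65 times in myotubes. It held 161503 reads at day 0 and 299479 at day 5, which were 5.76% and 8.12% of the island reads of chromosome 15. At day 5, 29 of the 48 locus islands (60.4%) were above 132 reads per kb, the 95th percentile of the rest of the chromosome. At day 0, 18 of 66 (27.3%) were above the corresponding 103 reads per kb.

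**Figure D2:**
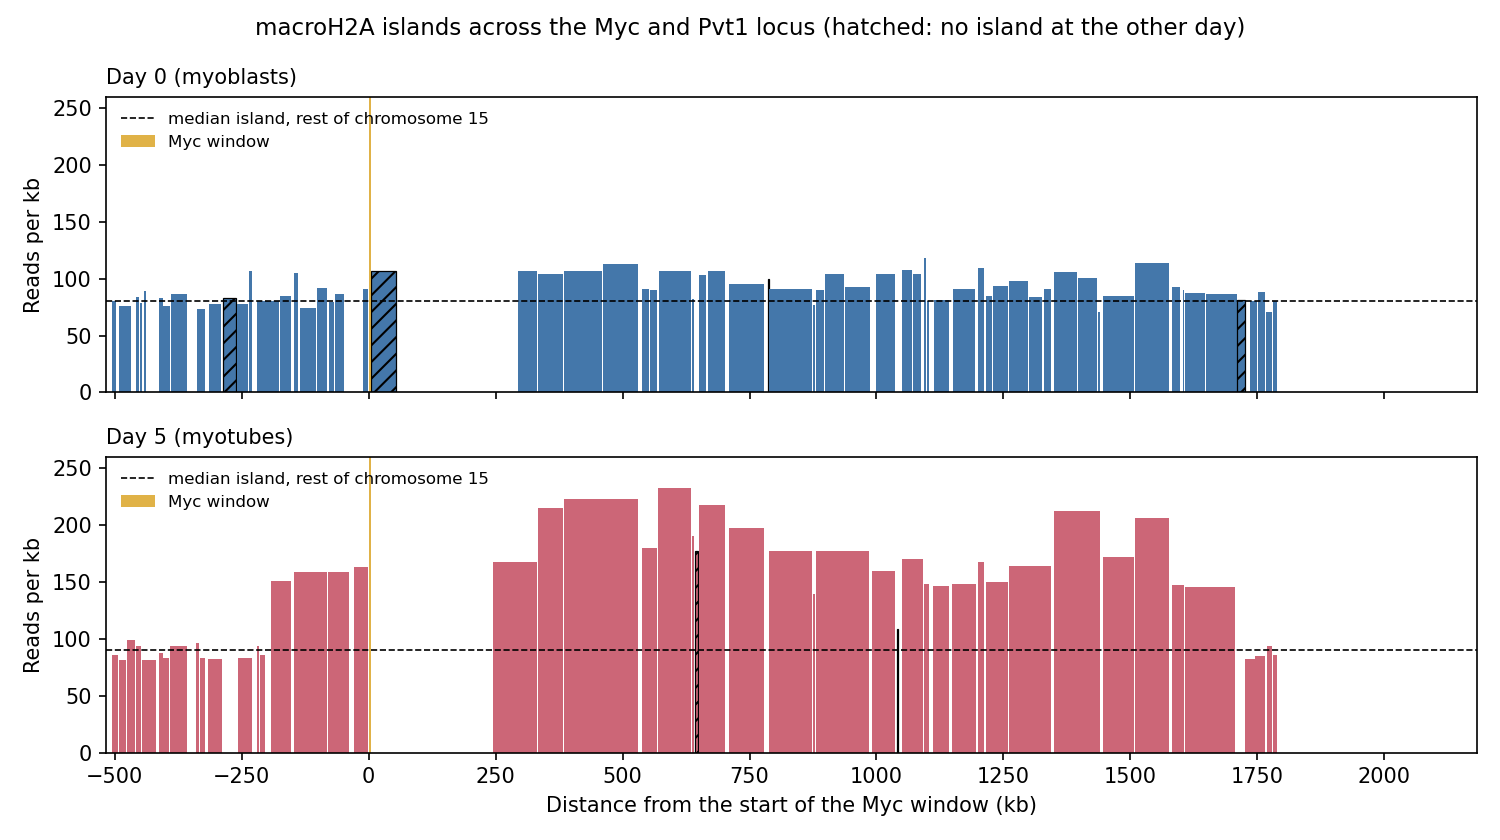
All islands of the locus at day 0 (top) and day 5 (bottom), drawn as bars over their extent, with distance from the start of the Myc window in kb on the x axis and reads per kb on the y axis. The dashed line is the median island of the rest of chromosome 15 on that day (80.6 and 90 reads per kb); at day 5 the bars stand near that line at both ends of the locus and well above it in between.

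The higher density at day 5 did not fill the locus, and it began and ended between neighbouring islands. Each island has only an average density, so a gradual change inside an island at either end would not be seen. The first 14 myotube islands, up to 61611600, had 81.1 to 98.9 reads per kb. After a gap of 12.6 kb, density was 151 reads per kb (147 to 155) in the island from 61624201 to 61663200, on 5883 reads. From there to 63522000, a length of 1.9 Mb, all 30 islands had at least 108 reads per kb and up to 233, with a median of 168. That length includes the 244.2 kb without an island at day 5 in which Myc lies. Beyond 63522000, after a gap of 21 kb, the last 4 islands, from 63543001 on, again had 82.5 to 94.1 reads per kb. The stretch was defined by day 5 density at or above 100 reads per kb after these values had been seen, and is called the dense stretch below. The values nearest to that limit were 98.9 outside and 108 inside.

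At the limit of 100 reads per kb, no run of as many dense islands was found elsewhere on chromosome 15. The locus was chosen for its day 5 density and the limit was set on its values, so this is a description. Of the myotube islands in the rest of the chromosome, 26.1% had at least 100 reads per kb, and the longest runs of consecutive ones held 14, 7 and 7 islands, against 30 in the dense stretch. In the flanks of 2.7 Mb on each side of the locus, 28 of 107 myotube islands reached that density. Under a limit of 132 reads per kb the longest unbroken run in the locus held 17 islands. Runs in the rest of the chromosome are not given at that limit.

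The same stretch was far less distinct in myoblasts, though it held most of the densest day 0 islands of the locus. Of its 48 day 0 islands, 17 were above 103 reads per kb, the 95th percentile of the rest of chromosome 15. Of the 18 other locus islands, 1 was. Before Myc, the 8 day 0 islands of the stretch had 74.4 to 105 reads per kb with a median of 85.9. From Myc onward, its 40 day 0 islands had 71 to 118 with a median of 94.3. The 13 day 0 islands wholly before it had a median of 80.6 and the 5 wholly after it a median of 80.4, and both groups overlap those of the stretch. At day 5, by contrast, the 4 islands before Myc (151 to 163 reads per kb) and the 26 after it (108 to 233) overlapped neither the islands before nor those after the stretch. That separation follows from how the stretch was chosen.

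**Figure D3:**
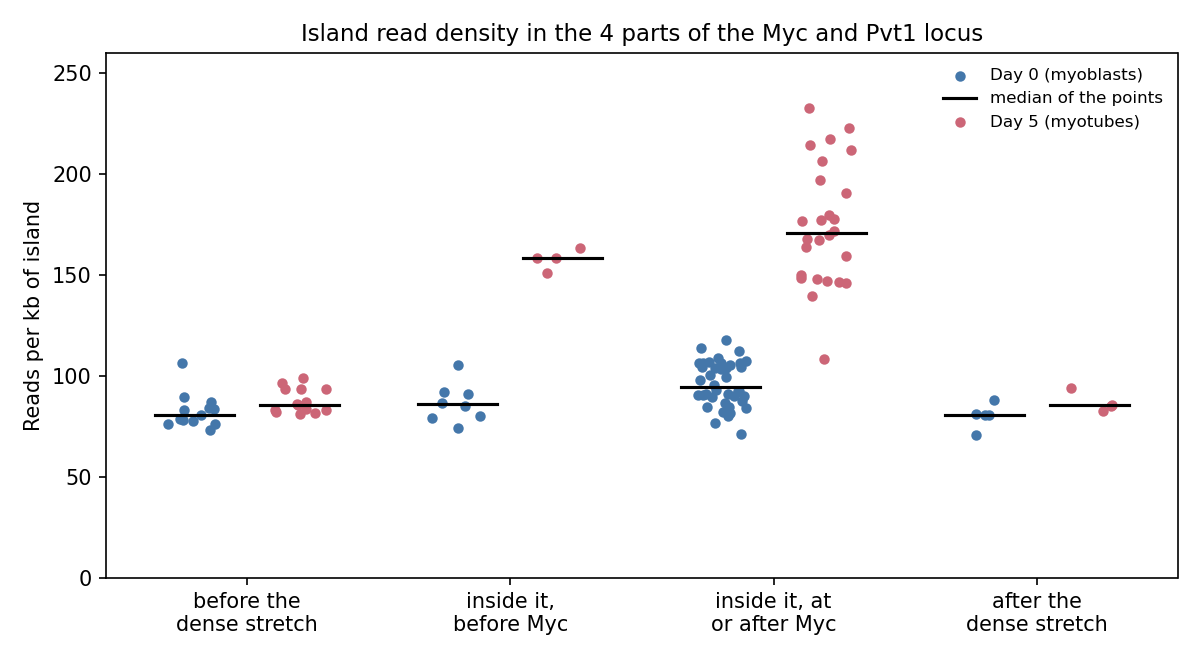
Reads per kb of every island of the locus (y axis) in 4 successive parts of it, at day 0 (blue) and day 5 (red); each point is 1 island, horizontal bars are medians, and points are spread sideways for legibility. At day 5 all 30 islands inside the dense stretch lie at 108 reads per kb or above, while at day 0 the 4 parts overlap.

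To compare the days where both had islands, reads per kb at day 5 were divided by those at day 0 at every shared position of the 600 bp grid. An island's reads were spread evenly over its length, since the lists give 1 total per island. Over the rest of chromosome 15 the median ratio was 1.15, and folds from here on are relative to it. The median fold of the locus was 1.59 (a relative log2 ratio of 0.67), or 1.83 without that scaling. In the dense stretch it was 1.70, in the part of the locus before it 0.932, and in the part after it 0.894. Upstream of Myc, within the dense stretch, the median fold was 1.59, and from Myc onward it was 1.70, so the higher density lay on both sides of the gene.

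In tiles of 100 kb the fold was uneven along the dense stretch. Of 27 tiles in the locus, 20 shared at least 30 kb between the days, and 12 of those (60%) were at least 1.5-fold denser at day 5. Over the rest of chromosome 15 such tiles made up 3.12% (11 of 352), and over the other chromosomes 0% (0 of 2300). Since the locus was chosen for this density, the 60% is a description. The highest tiles were 62.4 to 62.5 Mb at 1.90, 62.2 to 62.3 Mb at 1.82 and 62.5 to 62.6 Mb at 1.79. Between 62.8 and 63.1 Mb the fold was lower, at 1.33, 1.43 and 1.43, and from 63.1 to 63.3 Mb it was 1.70 and 1.77. The lowest tiles were the first 3 of the locus, with 0.922 to 0.94. All 11 tiles past 1.5-fold in the rest of the chromosome lay between 54.1 and 56.7 Mb, the highest at 2.15.

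**Figure D4:**
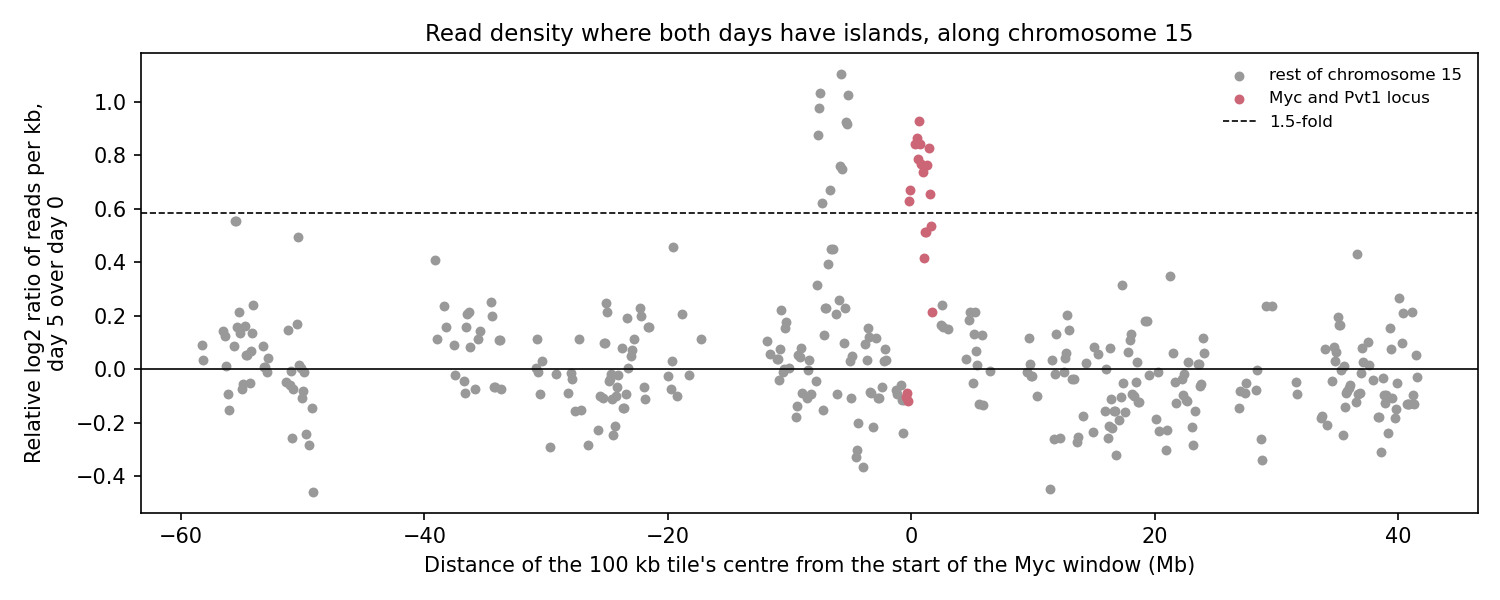
Relative log2 fold in read density from myoblasts to myotubes, in 100 kb tiles of chromosome 15 that share at least 30 kb of islands (y axis), against the distance of the tile's centre from the start of the Myc window in Mb (x axis). Red points are the 20 locus tiles and grey points the 352 others; 12 red and 11 grey points lie above the dashed line at 1.5-fold, the grey ones all in a group on the left of the locus.

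The densest islands of the locus lay downstream of the gap at Pvt1's side of Myc. In myotubes the densest was the 63.6 kb island from 62386801 to 62450400, with 14803 reads at 233 reads per kb (229 to 236.5). The myoblast island beneath it averaged 106 reads per kb. The widest myotube island, 145.8 kb from 62201401 to 62347200, was the next densest at 223 reads per kb (220.3 to 225.2), and it spans 2 myoblast islands of 106 and 112 reads per kb. The islands from 62466601 to 62518200, from 62149801 to 62199000 and from 63166801 to 63257400 followed with 217, 215 and 212 reads per kb. Over the myoblast islands beneath them, all 5 had unscaled folds of 2.01 to 2.19.

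In myoblasts the densest island was a narrow one, 4.2 kb from 62910601 to 62914800, with 495 reads at 118 reads per kb (107.7 to 128.7). It was followed by the 66.6 kb island from 63325801 to 63392400 at 114 and the 69 kb island from 62278201 to 62347200 at 112 reads per kb. Next were the islands from 63016801 to 63028200 at 109 and from 62866201 to 62886600 at 108. The intervals of all 5 overlap each other, so their order is not resolved, nor is the fifth place against islands just below it. All 5 lay inside the later dense stretch. The joint domain around the densest of them, from 62910601 to 62920800, had the smallest fold of the 28 that touch the stretch, 1.09, against a median of 1.58. That fold is a median over shared positions, most of which lie in this densest island, where the unscaled fold was 1.25. The island was picked for its high day 0 density, which is the divisor of the fold. In the other myoblast island of the domain, from 62916601 to 62920200, the unscaled fold was 1.85. The domain as a whole went from 100 to 148 reads per kb.

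The widest myoblast islands were from 62605801 to 62689200 (83.4 kb), from 62202001 to 62275800 (73.8 kb), from 62525401 to 62595600 (70.2 kb), from 62278201 to 62347200 (69 kb) and from 63325801 to 63392400 (66.6 kb). After the 145.8 kb island, the widest in myotubes were from 62697001 to 62802600 (105.6 kb), from 63423601 to 63522000 (98.4 kb), from 63166801 to 63257400 (90.6 kb) and from 62060401 to 62148000 (87.6 kb). The myoblast list had 8 islands over 50 kb among its 66 in the locus, and the myotube list 13 among its 48. The shares in the rest of chromosome 15 are not given here, so these counts do not show whether the difference is particular to the locus.

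Few islands of the locus were present at 1 day alone. At day 0 they were 4 of 66 (6.06%), against 24.2% of the myoblast islands in the rest of chromosome 15 and 28.6% in the genome. At day 5 they were 2 of 48 (4.17%), against 28.6% in the rest of the chromosome and 31.5% in the genome. Islands in the locus are wide and closely spaced, and wide islands meet another more easily; the part of this in the low shares was not tested. Besides the island at Myc, the 3 seen at day 0 alone ran from 61528801 to 61555800 (27 kb, 83.3 reads per kb), from 63527401 to 63541200 (13.8 kb, 80.9 reads per kb) and from 62602201 to 62604000 (1.8 kb, 99.4 reads per kb). The first of them lay before the dense stretch, and the 13.8 kb one just past its downstream end. The 2 seen at day 5 alone were small, from 62459401 to 62464200 (4.8 kb, 178 reads per kb) and from 62857801 to 62859600 (1.8 kb, 108 reads per kb). The island at Myc thus accounted for the largest part of what was covered at 1 day alone by whole islands.

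Identical borders at both days made up a larger share in the locus than in the rest of chromosome 15, while for myoblast borders the shares within 1200 bp were close. Of the 92 borders of shared myotube islands, 45 (48.9%) fell on the same grid position as a myoblast border, against 25.9% in the rest of chromosome 15. Within 1200 bp the shares were 70.7% and 49.6%. Of the 124 borders of shared myoblast islands, 45 (36.3%) had an identical myotube border, against 24.9%, and 65 (52.4%) had one within 1200 bp, against 47.7%. Joined across both days, the islands formed 46 domains, 40 with islands at both days, and in 14 of these both outer borders were identical. The median of the larger outer shift was 0.6 kb, 1 step of the grid. Domain values for the rest of chromosome 15 are not given, so these do not show whether stable outer borders are particular to the locus.

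Where borders moved far, myotube islands were the wider ones. After the 51 kb shift downstream of Myc, the next largest were 19.8 kb on the right of the domain from 61371001 to 61397400, and the 16.8 kb shift just upstream of Myc. The next 2 were 10.2 kb on the right of the domain that ends at 61777200 and 9.6 kb on the left of the domain that starts at 63543001. All 5 were extensions at day 5, and 3 of them lay in the dense stretch.

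Neighbouring myoblast islands were often joined into 1 in myotubes. Of the 48 day 5 islands, 18 (37.5%) met 2 or more day 0 islands and none met more than 3, against 13.5% in the rest of chromosome 15. In reverse, 5 of 66 day 0 islands (7.58%) met 2 or more day 5 islands, against 12.5%. Joining took place mostly in the dense stretch, where 14 of 30 day 5 islands did so, compared with 4 of the 18 others. Read density at day 5 was also higher there, and its part in the joining was not tested.

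The locus ended in a stretch without islands at either day. After the last myoblast island, from 63597001 to 63605400, nothing was listed until 64215601, which lies 216 kb beyond the end of the locus. The islands that begin there had 95.8 reads per kb at day 0 and 123 at day 5. On the other side, the nearest island outside the locus ended 33.4 kb before it at day 0, with 78.7 reads per kb, and 1.6 kb before it at day 5, with 101 reads per kb.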

How the data were processed

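MacroH2A ChIP-seq islands of C2C12 cells were analysed from 1 deposited list per day. The deposited values are counts of reads in each island, whole numbers with no scaling. Per the submitters' processing notes, the build was mm9 (NCBIM37) and the tools were SICER 1.1, Bowtie2 2.2.6, CASAVA 1.4 and MACS 1.4.2, with no roles given; per the deposited lists' names, the window was 600 bp, the gap 1200 bp and the false discovery rate 0.01. Use of input as control is not given in the sources used here. Lists held 24365482 and 29619426 reads in islands (day 5 over day 0, 1.22), which are not library depths.

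The locus and all settings were chosen with earlier results of these data known. Islands touching the span were kept whole; shared means at least 1 bp overlap. Named are islands at or next to Myc, per day the 5 widest, the 5 densest and up to 5 without counterpart, the longest island-free stretches, the 5 largest border shifts and the 3 highest and lowest tiles; the dense stretch, the tiles from 62.8 to 63.3 Mb and the islands at its ends were added after their values were seen. The code was checked on simulated data. Alternatives are given in the closing section. Python 3.11.15, NumPy 2.4.6, SciPy 1.17.1 and matplotlib 3.10.9 were used.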

Additional observations from a re-analysis of the deposited data

How the results depend on the processing

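Of 30 recomputed values 19 stayed within tolerance, 11 moved and 0 reversed. The tolerance for the ratio of covered length, 0.39, rests on island numbers alone and is wide, so its 6 values (1.03 to 1.07) could hardly leave it. The relative log2 ratio of 0.67 moved to 0.68 against the genome median, 0.59 against the ratio of total island reads, 0.59 from reads over common stretches, 0.77 from the Myc window on, 0.63 against both flanks and 0.77 in the dense stretch; its tolerance, 0.0091, covers counting error only. Islands at day 0 alone went from 4 to 1 with islands within 5 kb merged and 2 in the dense stretch. Islands at day 5 alone went from 2 to 1 with islands of at least 3 kb, 0 after merging and 6 with 50% overlap required. Merging, stricter overlap, the width limit and the shorter span change these counts by construction. For the relative log2 ratio, a change of reference shifts it by the difference between the references. Why the other settings moved it was not tested. With the 95th percentile of the rest (132 reads per kb) in place of 100, the dense stretch kept both ends only if 1 island under it was allowed inside, and otherwise ended at 62853600 with 17 islands. The flanks, the dense stretch and this limit were chosen after seeing the data. With 1 library per day, variation between cultures was not measured.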
